A study of Mus musculus with 8 samples.

Results

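Ubiquitin ligases of the SCF type, named for Skp1, Cul1 and the F-box protein, were followed at the RNA level in mouse kidney epithelial cell lines that differ at Pkd1, the gene for polycystin-1, whose loss gives polycystic kidney disease. The genes taken were those whose mouse symbol is Fbxo, Fbxl or Fbxw and a number, together with Skp1, Cul1, Rbx1, Skp2, Btrc and Ccnf. This gave 81 of the 18631 genes listed. The null line lacks Pkd1 (Pkd1-/-) and the other line is heterozygous (Pkd1+/-). Each line received 50 nM THZ1 for 6 h, an inhibitor of the transcription kinase CDK7, or the vehicle DMSO. The 4 groups, null THZ1, null DMSO, heterozygous THZ1 and heterozygous DMSO, hold 2 libraries each. All cells grew in the same serum-supplemented medium with interferon gamma, T3 and insulin-transferrin-selenium, so the controls carry these agents too. There is 1 line per genotype, so a difference between genotypes cannot be told apart from a difference between 2 lines, and no label says that replicates came from separate cultures: a p-value then measures only the spread between these libraries.

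In an SCF ligase Cul1 is the scaffold, Rbx1 is the RING subunit that recruits a ubiquitin-charged conjugating enzyme, and Skp1 is the adaptor that holds the F-box protein. The F-box protein is the exchangeable part that binds the substrate: Fbxw members do so through WD repeats, Fbxl members through leucine-rich repeats and Fbxo members through other domains. Through these receptors SCF ligases degrade cyclins, kinase inhibitors, transcription factors and misfolded glycoproteins.

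Values were FPKM, fragments scaled to transcript length and to the mapped fragments of the library, and rest on an estimated 17600000 to 18300000 fragments per library, so that 1 fragment on a transcript of 1000 bp is worth about 0.054 to 0.057 FPKM. Pkd1 was at 1.22 and 1.21 FPKM in null THZ1, 1.69 and 1.32 in null DMSO, 3.71 and 4.20 in heterozygous THZ1 and 4.58 and 5.30 in heterozygous DMSO libraries. Its values in the null libraries lay below all heterozygous ones. Of the markers of kidney tubular epithelium, Krt8 (178 to 339 FPKM), Krt18, Krt7 and Cdh16 were high in every library, while Cdh1 (at most 0.42 FPKM) and Epcam (at most 0.24) were near 0. Fibroblast and mesenchyme markers summed to 153 to 158 FPKM in null THZ1, 126 to 127 in null DMSO, 10.6 to 11.8 in heterozygous THZ1 and 11.1 to 11.5 in heterozygous DMSO libraries, nearly all of it Acta2 and Col1a1; their part in the differences between the lines was not tested. Endothelial markers summed to at most 0.20 FPKM, and among leukocyte markers Cd3e and Adgre1 were listed at 0, Ptprc was at most 0.27 FPKM, Csf1r lay between 3.41 and 9.68 and Cd68 between 1.72 and 4.82. In null cells under THZ1 Csf1r was at -0.76 and Cd68 at 0.89 on the log2 scale (limma adjusted p = 2.49e-06 and 5.11e-06).

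Of the 81 genes, 52 averaged at least 1 FPKM over all libraries and were tested: 25 of 36 Fbxo genes, 13 of 18 Fbxl genes, 8 of 21 Fbxw genes and all 6 others. Skp1 was the most abundant, at 129 to 194 FPKM, ahead of Fbxl5, Cul1, Rbx1 and Fbxw9, which lay between 40.6 and 78.3 FPKM. Group means of at least 10 FPKM were reached by 25 of the genes in null THZ1, 29 in null DMSO, 30 in heterozygous THZ1 and 29 in heterozygous DMSO cells. The other 29 were not tested. Fbxo16, Fbxo27, Fbxw18, Fbxw19, Fbxw21 and Fbxw27 were listed at 0 in every library, and 11 more never passed 0.05 FPKM. Of the Fbxw genes, 12 belong to a block of closely related genes on chromosome 9; none of these passed 0.04 FPKM, and their reads cannot be assigned with certainty. Just under the limit were Fbxo24 (mean 0.539 FPKM), Fbxo17 (0.658) and Fbxo32 (0.879), the last known as atrogin-1 of muscle wasting, and just above it Fbxo44 (1.32), Fbxo31 (1.57) and Fbxo48 (1.68).

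**Figure D1:**
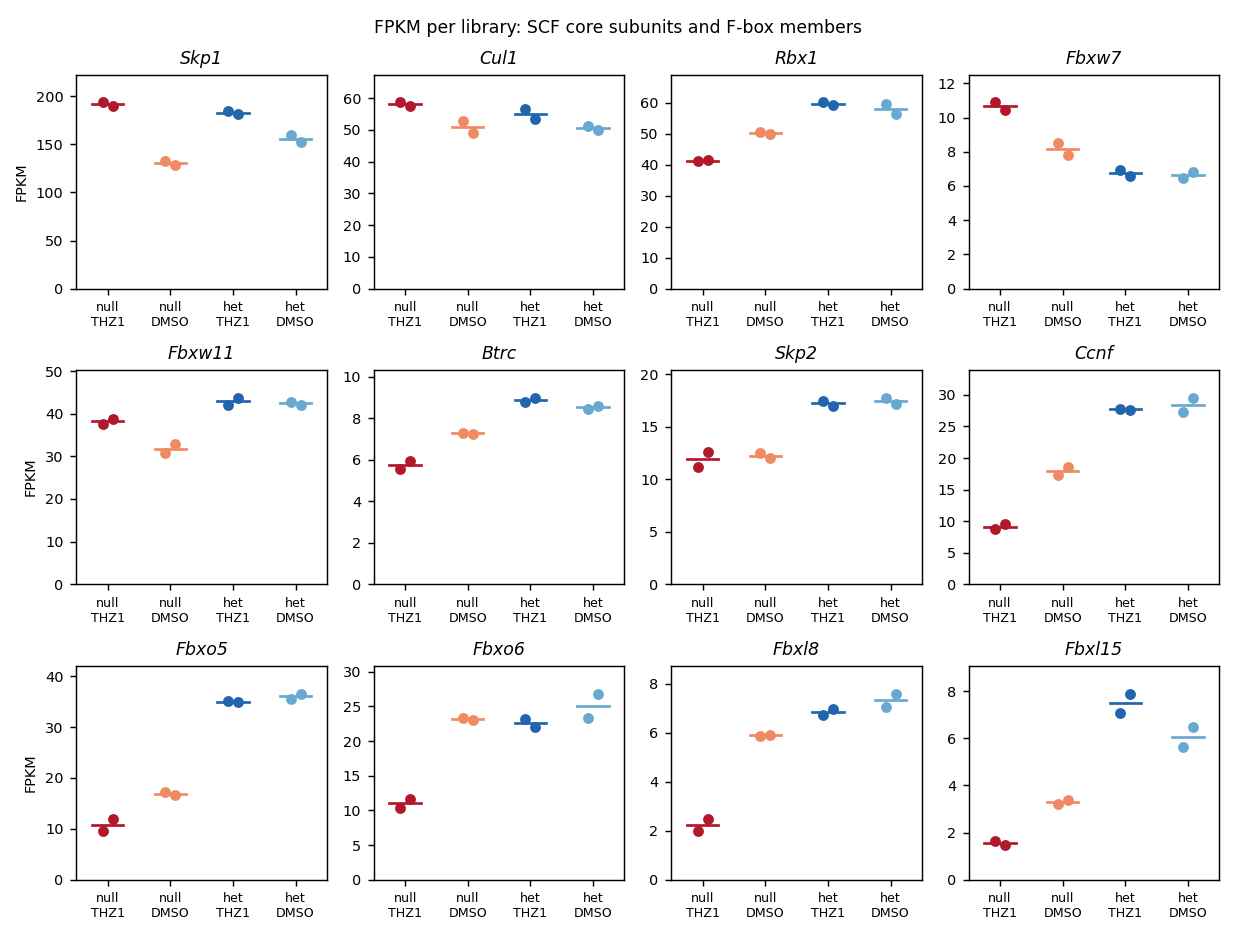
FPKM (vertical axis, from 0) of 12 F-box and SCF genes in the 4 groups; each point is a library and each bar the mean of 2. Fbxo6 was low in null THZ1 libraries alone, Fbxl8 was lowest there and under the heterozygous values in null DMSO libraries too, and Skp2 was low in both null groups.

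The first comparison set null against heterozygous cells under DMSO. Fbxo2 and Fbxo44, related genes encoded side by side on chromosome 4, were far lower in null cells. The cell cycle members Fbxo5, Ccnf and Skp2 were lower, and the iron-sensing Fbxl5 and Fbxw7 were higher. Of the 52 tested genes, 16 were higher and 20 lower in null DMSO than in heterozygous DMSO cells (limma on log2(FPKM + 1), adjusted p below 0.05). Over all 10731 tested genes 29.0% were called higher and 41.0% lower. The median log2 difference was 0.01 over the 52 genes and -0.07 over all tested genes. Rescaled by median of ratios or upper quartile, 20 were higher and 16 lower (median of ratios: 33.6% and 35.4% of all genes), and by library totals 19 and 17 (31.8% and 37.3%); 16 were higher and 16 lower under each of these scalings and the main one. The share of all tested genes called alike under every scaling was not taken. Such counts are only a description, here and in the comparisons that follow. In 44 of the 52 genes the values of the 2 groups did not overlap, as in 84.5% of all tested genes.

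Fbxo2, which recognises high-mannose sugar chains on glycoproteins due for degradation, had 1.87 and 2.04 FPKM in null THZ1, 1.47 and 1.68 in null DMSO, 24.0 and 26.3 in heterozygous THZ1 and 20.8 and 22.5 in heterozygous DMSO libraries. Every null value lay far under the lowest heterozygous one. The log2 difference of null to heterozygous under DMSO was -3.14 ± 0.08 (limma SE; adjusted p = 4.92e-12). Fbxo44, of the same family as Fbxo2, had 0.29 and 0.32 FPKM in null THZ1 and 0.32 and 0.21 in null DMSO libraries. It had 2.65 and 2.70 FPKM in heterozygous THZ1 and 2.15 and 1.91 in heterozygous DMSO libraries. The log2 difference under DMSO was -1.26, on a scale that understates the change of such low values. So it does for any gene with low values in a group compared, among them Fbxo2, Fbxo48 and Fbxl8. Fbxo44 passed the limit of 1 FPKM only through the heterozygous libraries, where it is high, so this difference is given as a description with no test. The gene remains among the 20 counted as lower. In bulk RNA, fewer cells expressing a gene and less RNA of it per cell cannot be told apart, here or in any result that follows. Their neighbour Fbxo6, also a glycoprotein receptor, did not share this: it had 23.3 and 23.0 FPKM in null DMSO libraries, against 23.3 and 26.9 in heterozygous DMSO libraries (log2 difference -0.11 ± 0.07, limma adjusted p = 0.186). Of the other members of the family, Fbxo17 ranged from 0.43 to 0.85 FPKM over all libraries and Fbxo27 was listed at 0 in all.

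Fbxo2 and Fbxo44 are transcribed away from each other. The starts used here are 574 bp apart, but the listed loci come closer: Fbxo44 ends at 148160183 and Fbxo2 begins at 148160198. Their start regions are shown because this pair of neighbours was low in null cells while the next gene, Fbxo6, was not. Each sequence runs 5' to 3' on the gene's own strand, from 250 bases before the start to 50 after it (RefSeq, GRCm38.p6). Fbxo2 is read from the plus strand of chr4:148160418-148160717 and Fbxo44 from the minus strand of chr4:148160045-148160344, with 73 bp between the windows. Capitals mark CCAAT, on either strand.
Fbxo2: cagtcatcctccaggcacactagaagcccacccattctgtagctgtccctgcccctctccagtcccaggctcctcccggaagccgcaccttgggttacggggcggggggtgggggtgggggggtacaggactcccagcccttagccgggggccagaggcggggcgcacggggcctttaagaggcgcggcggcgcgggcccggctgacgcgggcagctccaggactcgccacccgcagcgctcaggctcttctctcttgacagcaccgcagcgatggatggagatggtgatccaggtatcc
Fbxo44: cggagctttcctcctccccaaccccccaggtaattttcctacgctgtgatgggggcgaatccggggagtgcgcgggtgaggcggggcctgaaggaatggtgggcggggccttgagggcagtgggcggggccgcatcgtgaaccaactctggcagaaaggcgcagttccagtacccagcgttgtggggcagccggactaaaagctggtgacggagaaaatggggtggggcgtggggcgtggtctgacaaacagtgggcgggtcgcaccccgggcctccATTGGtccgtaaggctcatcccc
The letters CCAAT occur once in the Fbxo44 window shown, on the opposite strand 28 bases after the start, and not in that of Fbxo2. They occur in 37.4% of the 32851 windows of this length in the RefSeq table. Other Fbxo44 starts are listed: the window of the start at 148158823 holds CCAAT 13 bases before it, and that of 148159589 holds none.

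Genes around the pair were looked up after its values had been seen. On the side of Fbxo6, Mad2l2, a subunit of DNA polymerase zeta, was lower in null than in heterozygous cells under DMSO (log2 difference -0.52, limma adjusted p = 2.09e-05). On the other side Mtor did not pass the test (0.08, limma adjusted p = 0.347), and Angptl7, whose locus lies within that of Mtor, was lower (-1.001, limma adjusted p = 1.04e-07). Draxin and Disp3 were near 0 in all libraries. Of the genes plotted, Fbxo2 had the largest difference between the lines under DMSO, followed by Fbxo44 and Angptl7.

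**Figure D2:**
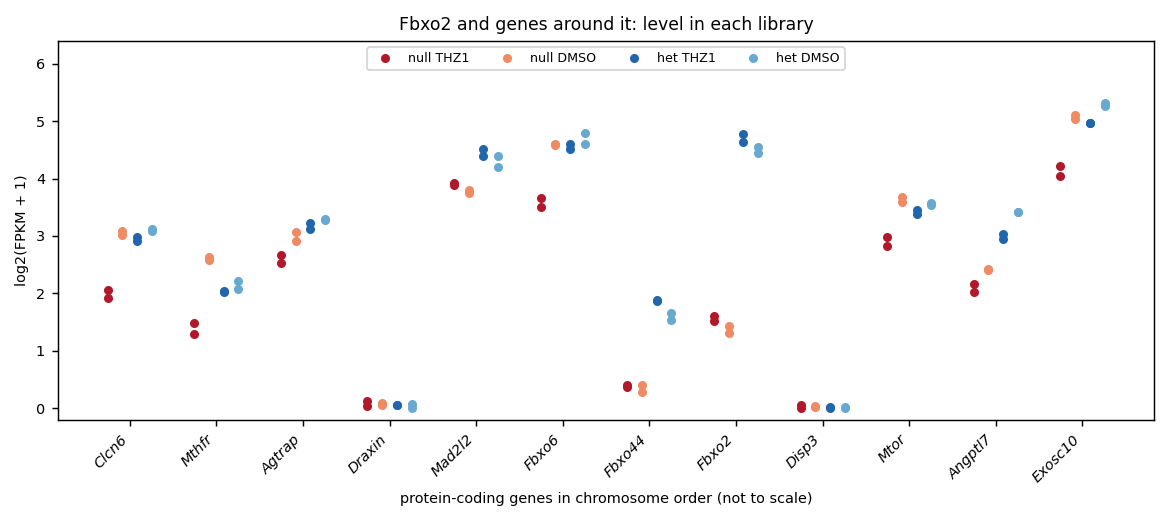
Level of Fbxo2 and protein-coding genes around it in chromosome order, as log2(FPKM + 1), with 1 point per library and the 4 groups side by side. Fbxo44 and Fbxo2 were the pair whose null points lay far under the heterozygous ones, while Fbxo6 next to them was low in null THZ1 libraries alone.

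Among the cell cycle members, Fbxo5 (Emi1, an inhibitor of the anaphase-promoting complex) had 9.61 and 11.9 FPKM in null THZ1, 17.2 and 16.7 in null DMSO, 35.2 and 34.8 in heterozygous THZ1 and 35.5 and 36.6 in heterozygous DMSO libraries. The null DMSO values were under those of both heterozygous groups, and the null THZ1 values were lower again. The log2 difference of the lines under DMSO was -1.05 ± 0.07 (limma adjusted p = 6.52e-08). Ccnf (cyclin F, the protein that gave the F-box its name) had 8.70 and 9.56 FPKM in null THZ1, 17.3 and 18.6 in null DMSO, 27.9 and 27.6 in heterozygous THZ1 and 27.3 and 29.5 in heterozygous DMSO libraries. It followed the same order of groups, with a log2 difference of -0.63 ± 0.06 under DMSO (limma adjusted p = 1.32e-06). Skp2, the receptor for the kinase inhibitor p27, had 11.2 and 12.6 FPKM in null THZ1, 12.5 and 12.0 in null DMSO, 17.4 and 17 in heterozygous THZ1 and 17.7 and 17.2 in heterozygous DMSO libraries. All null values of Skp2 were below all heterozygous ones (-0.48 ± 0.06 under DMSO, limma adjusted p = 2.09e-05). The gene lies across part of Lmbrd2, and without stated strand their reads cannot be told apart; Lmbrd2 was lower in null cells as well (-0.60 under DMSO, limma adjusted p = 0.00141). Beside these 3 genes, a list of 16 proliferation genes summed to 607 to 632 FPKM in null THZ1, 717 to 733 in null DMSO, 1445 to 1475 in heterozygous THZ1 and 1430 to 1433 in heterozygous DMSO libraries, and all 16 were lower in null DMSO than in heterozygous DMSO cells (median log2 difference -0.99, against -0.07 over all tested genes). The part of proliferation in the values of Fbxo5, Ccnf and Skp2 was not tested.

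The start regions of Ccnf and Fbxo5 are shown because both genes were lower in null cells and fell further under THZ1. The window of Ccnf is the minus strand of chr17:24251360-24251659 and that of Fbxo5 the minus strand of chr10:5805416-5805715 (RefSeq, GRCm38.p6), printed 5' to 3' on the gene's strand. Capitals mark TTTGAA, the letters known as the cell cycle homology region of late cell cycle genes, and CCAAT, either strand, which do not overlap here.
Ccnf: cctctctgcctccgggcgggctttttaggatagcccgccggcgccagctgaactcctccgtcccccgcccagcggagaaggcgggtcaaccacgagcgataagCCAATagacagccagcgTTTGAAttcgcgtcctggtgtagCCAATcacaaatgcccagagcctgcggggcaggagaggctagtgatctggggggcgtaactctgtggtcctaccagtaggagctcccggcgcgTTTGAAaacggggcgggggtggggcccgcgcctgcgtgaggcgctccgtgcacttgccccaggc
Fbxo5: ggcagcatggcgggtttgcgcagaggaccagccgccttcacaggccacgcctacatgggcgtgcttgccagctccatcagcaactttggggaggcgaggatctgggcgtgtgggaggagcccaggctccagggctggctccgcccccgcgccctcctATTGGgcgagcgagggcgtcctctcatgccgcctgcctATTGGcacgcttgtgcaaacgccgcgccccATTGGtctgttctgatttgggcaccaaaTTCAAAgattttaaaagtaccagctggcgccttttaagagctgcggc
In Ccnf TTTGAA lies 14 and 130 bases before the start and CCAAT 107 and 147 bases before it. In Fbxo5 TTTGAA lies 4 bases after the start and CCAAT 25, 55 and 93 bases before it, all on the opposite strand. TTTGAA alone is held by 17.9% of all windows and CCAAT by 37.4%. Of the 41 tested F-box and SCF genes with a window, 10 held TTTGAA and 15 held CCAAT in any of their windows. A TTTGAA within 20 bases of the start together with at least 2 CCAAT was in 0.301% of all windows (99 of 32851), and among the 41 tested F-box and SCF genes with a window only in Ccnf and Fbxo5. This pairing was defined after both sequences had been seen. Its presence in these 2 genes was therefore fixed in advance and is no evidence about them. E2F-type letters (TTTCCCGC, TTTCGCGC, TTTGCCGC or TTTGGCGC, either strand) were in 2.26% of all windows and in 1 of the 41, Rbx1. A match of letters is a description and not a binding site.

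The subunits common to all SCF ligases differed less. Skp1 had 194 and 190 FPKM in null THZ1, 132 and 129 in null DMSO, 185 and 182 in heterozygous THZ1 and 160 and 153 in heterozygous DMSO libraries. It was lowest in null DMSO cells, with a log2 difference of null to heterozygous of -0.26 ± 0.04 under DMSO (limma adjusted p = 8.07e-05). Rbx1 had 41.0 and 41.6 FPKM in null THZ1, 50.5 and 49.8 in null DMSO, 60.1 and 59.2 in heterozygous THZ1 and 59.5 and 56.4 in heterozygous DMSO libraries. Its null values were all under its heterozygous ones (-0.20 ± 0.04 under DMSO, limma adjusted p = 0.000906). Cul1 had 58.6 and 57.6 FPKM in null THZ1, 52.7 and 48.9 in null DMSO, 56.6 and 53.3 in heterozygous THZ1 and 51.3 and 49.9 in heterozygous DMSO libraries. The DMSO values of the lines overlapped (log2 difference 0.00 ± 0.05, limma adjusted p = 0.94).

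The receptors of beta-catenin and of the NF-kappaB inhibitor, the paralogs Btrc and Fbxw11, were both lower in null cells. Fbxw11 had 37.6 and 38.9 FPKM in null THZ1, 30.7 and 32.8 in null DMSO, 42.2 and 43.7 in heterozygous THZ1 and 42.8 and 42.2 in heterozygous DMSO libraries. The log2 difference under DMSO was -0.41 ± 0.05 (limma adjusted p = 6.36e-06). Btrc had 5.57 and 5.95 FPKM in null THZ1, 7.29 and 7.23 in null DMSO, 8.76 and 8.97 in heterozygous THZ1 and 8.45 and 8.59 in heterozygous DMSO libraries. Its difference of -0.20 ± 0.07 under DMSO passed (limma adjusted p = 0.0142) but not without null DMSO replicate 1, null DMSO replicate 2 or heterozygous DMSO replicate 2 (adjusted p = 0.0514 to 0.0627), nor after median of ratios or upper quartile scaling. Fbxw7, the receptor of cyclin E, Myc, Jun and Notch, had 10.9 and 10.4 FPKM in null THZ1, 8.53 and 7.83 in null DMSO, 6.92 and 6.59 in heterozygous THZ1 and 6.47 and 6.80 in heterozygous DMSO libraries. It was higher in both null groups than in either heterozygous group (0.27 ± 0.07 under DMSO, limma adjusted p = 0.0043; 0.0524 without null DMSO replicate 1).

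Other genes with the lowest ratios of null to heterozygous included Fbxo36, with 1.29 and 1.61 FPKM in null THZ1, 1.83 and 3.13 in null DMSO, 10 and 10.3 in heterozygous THZ1 and 12.4 and 12.9 in heterozygous DMSO libraries. The groups of the 2 lines did not overlap (-2.00 ± 0.14 under DMSO, limma adjusted p = 4.07e-08). Its locus overlaps that of Trip12 by 10164 bp, and without stated strand their reads cannot be told apart; Trip12 itself lay between 25.3 and 36.5 FPKM and was lower in null cells too (-0.30 under DMSO, limma adjusted p = 0.00138). Fbxo45, which works with the neuronal ligase Mycbp2, had 10.8 and 11.7 FPKM in null THZ1, 11.3 and 10.7 in null DMSO, 21.3 and 22.5 in heterozygous THZ1 and 20.3 and 20.3 in heterozygous DMSO libraries. Null cells of either treatment had about the same level, well under the heterozygous ones (-0.83 ± 0.06 under DMSO, limma adjusted p = 7.96e-08). Fbxo48 had 0.56 and 0.69 FPKM in null THZ1, 1.23 and 1.35 in null DMSO, 1.90 and 1.95 in heterozygous THZ1 and 3.55 and 2.20 in heterozygous DMSO libraries (-0.74 ± 0.14 under DMSO, limma adjusted p = 0.000329). Its heterozygous DMSO values lay far apart, but both were above the null DMSO ones. Fbxl15, the receptor of the ubiquitin ligase Smurf1, had 1.65 and 1.48 FPKM in null THZ1, 3.21 and 3.40 in null DMSO, 7.06 and 7.90 in heterozygous THZ1 and 5.61 and 6.46 in heterozygous DMSO libraries. The log2 difference under DMSO was -0.71 ± 0.09 (limma adjusted p = 1.21e-05); 635 bp of the locus overlap Cuedc2, which is far more abundant (50.8 to 71.2 FPKM) and was lower in null cells too (-0.39, adjusted p = 1.49e-05).

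Among the genes higher in null cells, Fbxl5, the iron-regulated receptor of iron regulatory protein IRP2, was the most abundant, with 77.0 and 78.3 FPKM in null THZ1, 69.0 and 62.2 in null DMSO, 45.7 and 47.0 in heterozygous THZ1 and 47.2 and 44.7 in heterozygous DMSO libraries. All null values were above all heterozygous ones (0.50 ± 0.05 under DMSO, limma adjusted p = 2.15e-06). Fbxo38, known as a receptor of PD-1 in T cells, had 16.0 and 17.1 FPKM in null THZ1, 19.9 and 20.9 in null DMSO, 12.1 and 11.8 in heterozygous THZ1 and 13.2 and 11.9 in heterozygous DMSO libraries. It had the largest log2 difference in this direction (0.66 ± 0.06 under DMSO, limma adjusted p = 1.18e-06). Fbxl17, which removes wrongly paired BTB-domain proteins, had 2.28 and 2.36 FPKM in null THZ1, 2.76 and 2.44 in null DMSO, 1.70 and 1.53 in heterozygous THZ1 and 1.67 and 1.54 in heterozygous DMSO libraries (0.47 ± 0.09, limma adjusted p = 0.000466). Fbxw9 had 61.9 and 64.7 FPKM in null THZ1, 59.8 and 56.2 in null DMSO, 49.3 and 49.0 in heterozygous THZ1 and 40.6 and 42.9 in heterozygous DMSO libraries. Null values of both genes were above the heterozygous ones throughout, with 0.46 ± 0.05 for Fbxw9 under DMSO (limma adjusted p = 1.88e-06). By subfamily, 7 of 13 Fbxl genes were higher and 3 lower under DMSO. Of 8 Fbxw genes 5 were higher and 2 lower, of 25 Fbxo genes 4 and 10, and of the 6 others 0 and 5. Over all tested genes 29.0% were higher and 41.0% lower, and whether the subfamilies differ was not tested.

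**Figure D3:**
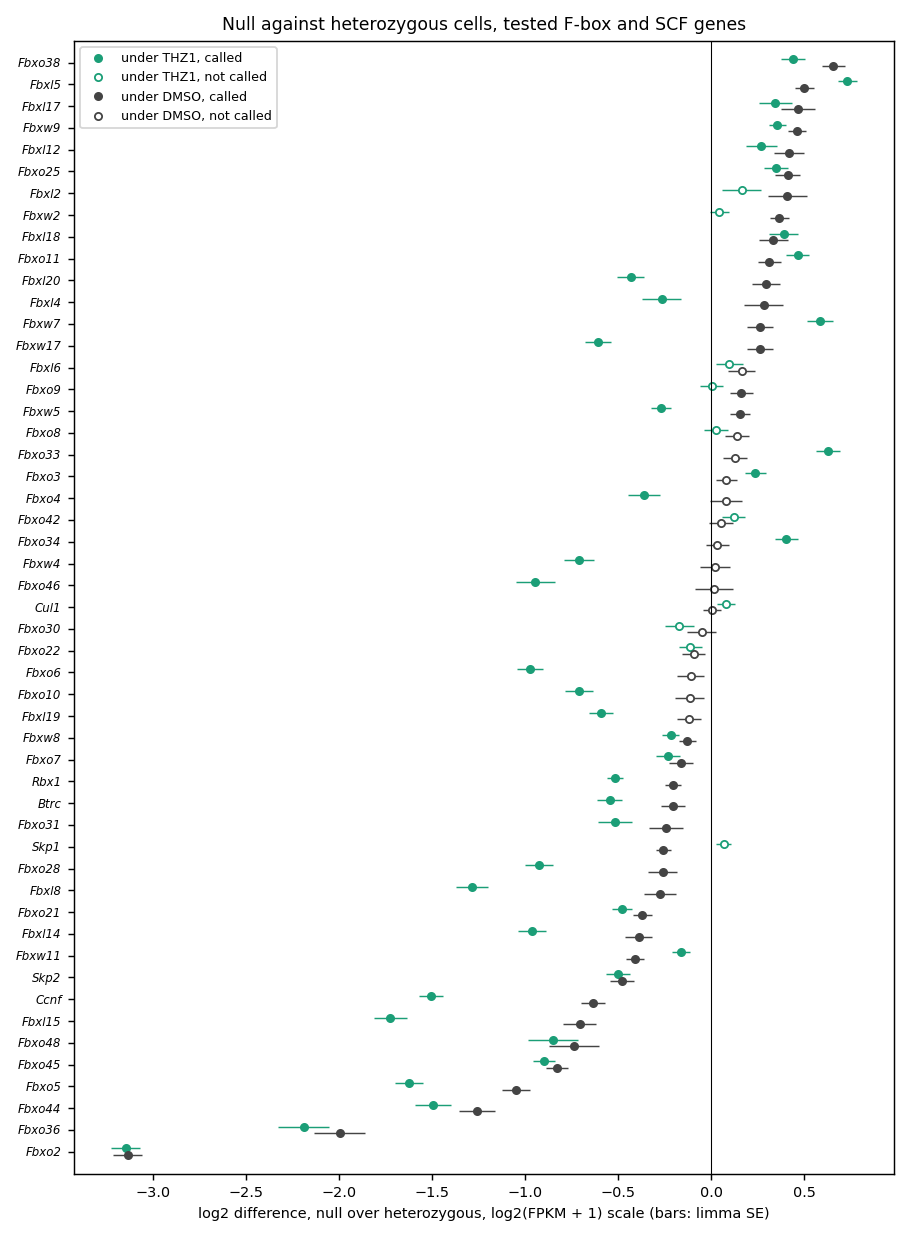
Log2 difference of null to heterozygous cells on the log2(FPKM + 1) scale for 51 of the 52 tested genes, under THZ1 and under DMSO, ordered by the difference under DMSO; bars are the limma SE and open points did not pass. Fbxo2, at -3.15 under THZ1 and -3.14 under DMSO, was the lowest in both.

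The second comparison set THZ1 against DMSO in null cells. The adaptor Skp1 and the receptors Fbxo33, Fbxo34, Fbxw7 and Fbxw11 rose, while Fbxo6, Fbxl8, Ccnf, Fbxo46, Fbxl20 and Fbxl15 fell. FPKM and every scaling used are relative to the other RNA of the same library. A change in total RNA per cell under THZ1 therefore cannot be seen, and rose and fell refer to relative levels throughout. Of the 52 tested genes 17 rose and 23 fell (limma, adjusted p below 0.05), against 24.6% and 51.1% of all tested genes. The median log2 change was -0.06 over the 52 genes and -0.17 over all tested genes. These counts depend on how libraries are scaled: 24 rose and 17 fell after median of ratios scaling, where 41.8% and 35.8% of all genes did and their median was 0.04, 24 and 19 after upper quartile scaling (39.3% and 37.6%) and 8 and 24 after library total scaling (19.1% and 57.1%), where the median was -0.25. Under all 4 scalings 8 genes rose (among them Skp1, Fbxl5, Fbxo3, Fbxo33, Fbxo34, Fbxw7 and Fbxw11) and 17 fell. The share of all genes that did so was not taken. Fbxw8, a receptor that works with Cul7, was called in opposite directions by different scalings. In 42 of the 52 genes the values of the 2 groups did not overlap, against 87.4% of all tested genes.

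Skp1 rose by a log2 change of 0.55 ± 0.04 (limma adjusted p = 6.9e-08), to 194 and 190 FPKM in null THZ1 libraries, against 132 and 129 in null DMSO libraries. Rbx1 went the other way at -0.27 ± 0.04 (limma adjusted p = 7.3e-05) and Cul1 was at 0.19 ± 0.05 (limma adjusted p = 0.00322). Neither call held under every scaling: Rbx1 was at -0.03 after median of ratios and -0.07 after upper quartile scaling, and Cul1 missed the threshold with library totals (0.11, adjusted p = 0.067).

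Fbxo33, a receptor of the RNA-binding protein YB-1, had 14.7 and 14.7 FPKM in null THZ1, 8.84 and 8.97 in null DMSO, 8.73 and 9.56 in heterozygous THZ1 and 7.94 and 8.17 in heterozygous DMSO libraries. Its null THZ1 values stood above those of the other 3 groups (log2 change in null cells 0.66 ± 0.06, limma adjusted p = 9.12e-07). Fbxo34 had 15.8 and 14.9 FPKM in null THZ1, 10.3 and 9.99 in null DMSO, 11.2 and 11.5 in heterozygous THZ1 and 9.53 and 10.2 in heterozygous DMSO libraries. The pattern was the same (0.55 ± 0.06, limma adjusted p = 3.57e-06). Fbxw7 changed by 0.34 ± 0.07 (limma adjusted p = 0.000592) and Fbxw11 by 0.26 ± 0.05 (adjusted p = 0.000279), whereas Btrc, the paralog of Fbxw11, was at -0.29 ± 0.07 (adjusted p = 0.00142). The call on Btrc ended under median of ratios (-0.08) and upper quartile scaling (-0.11).

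Fbxo3 had 35.2 and 35.0 FPKM in null THZ1, 29.4 and 28.3 in null DMSO, 29.3 and 29.98 in heterozygous THZ1 and 28.9 and 25.6 in heterozygous DMSO libraries. Its null THZ1 values were above all others (0.27 ± 0.06, limma adjusted p = 0.000684). Fbxo11, a receptor of the lymphoma protein BCL6, had 25.3 and 26.1 FPKM in null THZ1, 22.8 and 22.2 in null DMSO, 19.2 and 17.5 in heterozygous THZ1 and 18.7 and 17.2 in heterozygous DMSO libraries. Its log2 change of 0.18 ± 0.06 in null cells (limma adjusted p = 0.0153) was lost with library totals and without null DMSO replicate 2 or null THZ1 replicate 2 (adjusted p = 0.0789 and 0.0757).

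Fbxo6 fell to 10.4 and 11.7 FPKM in null THZ1 libraries, against 23.3 and 23.0 in null DMSO libraries, while heterozygous THZ1 libraries had 23.2 and 22.0 FPKM and heterozygous DMSO libraries 23.3 and 26.9. The null THZ1 group alone was low (log2 change -1.01 ± 0.07, limma adjusted p = 5.7e-08). Fbxl8 had 1.97 and 2.50 FPKM in null THZ1, 5.89 and 5.91 in null DMSO, 6.75 and 6.96 in heterozygous THZ1 and 7.07 and 7.61 in heterozygous DMSO libraries. Its change in null cells was the largest of the 52 genes (-1.10 ± 0.09, limma adjusted p = 1.44e-07). Fbxo46 had 1.66 and 2.33 FPKM in null THZ1, 4.35 and 4.47 in null DMSO, 4.90 and 4.56 in heterozygous THZ1 and 4.10 and 4.61 in heterozygous DMSO libraries. Both were lowest in null THZ1 libraries, with -0.86 ± 0.10 for Fbxo46 (limma adjusted p = 6.85e-06). Fbxl8 was also lower in null DMSO than in heterozygous DMSO libraries (-0.27 ± 0.09, limma adjusted p = 0.0129; 0.0515 to 0.084 without null DMSO replicate 1, null DMSO replicate 2 or heterozygous DMSO replicate 2). Fbxl20 had 5.62 and 6.08 FPKM in null THZ1, 10.4 and 10.9 in null DMSO, 8.23 and 8.25 in heterozygous THZ1 and 9.06 and 7.92 in heterozygous DMSO libraries. It was thus highest in null DMSO and lowest in null THZ1 cells (-0.76 ± 0.07, limma adjusted p = 1.06e-06).

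Ccnf and Fbxo5 changed by -0.90 ± 0.06 and -0.61 ± 0.07 in null cells (limma adjusted p = 4.73e-08 and 7.53e-06). Skp2 did not pass the test in the main scaling (-0.04 ± 0.06, limma adjusted p = 0.586) but was called higher after median of ratios scaling (0.19, adjusted p = 0.00952). Of the 16 proliferation genes, 1 rose and 10 fell in the same comparison (median -0.28, against -0.17 over all tested genes), and their part in the change of Ccnf and Fbxo5 was not tested. Further genes that fell under every scaling were Fbxl14, a receptor of the transcription factor Snail (-0.68), Fbxw4 (-0.71), Fbxo28 (-0.59), Fbxl4, which restrains mitophagy (-0.55), Fbxo4, a reported receptor of cyclin D1 (-0.52), and Fbxl19 (-0.48). Fbxo36 was at -0.48 ± 0.14 (limma adjusted p = 0.00579), a call that ended without null DMSO replicate 2 (-0.21, adjusted p = 0.0892) and without null THZ1 replicate 1 (-0.39, adjusted p = 0.055). Fbxo2, already low, was at 0.20 ± 0.08 (limma adjusted p = 0.0339). The call on Fbxo2 was lost without null DMSO replicate 1 (log2 change 0.14) or null THZ1 replicate 2 (0.158). Fbxo44, also low, was at 0.05, given as a description with no test.

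**Figure D4:**
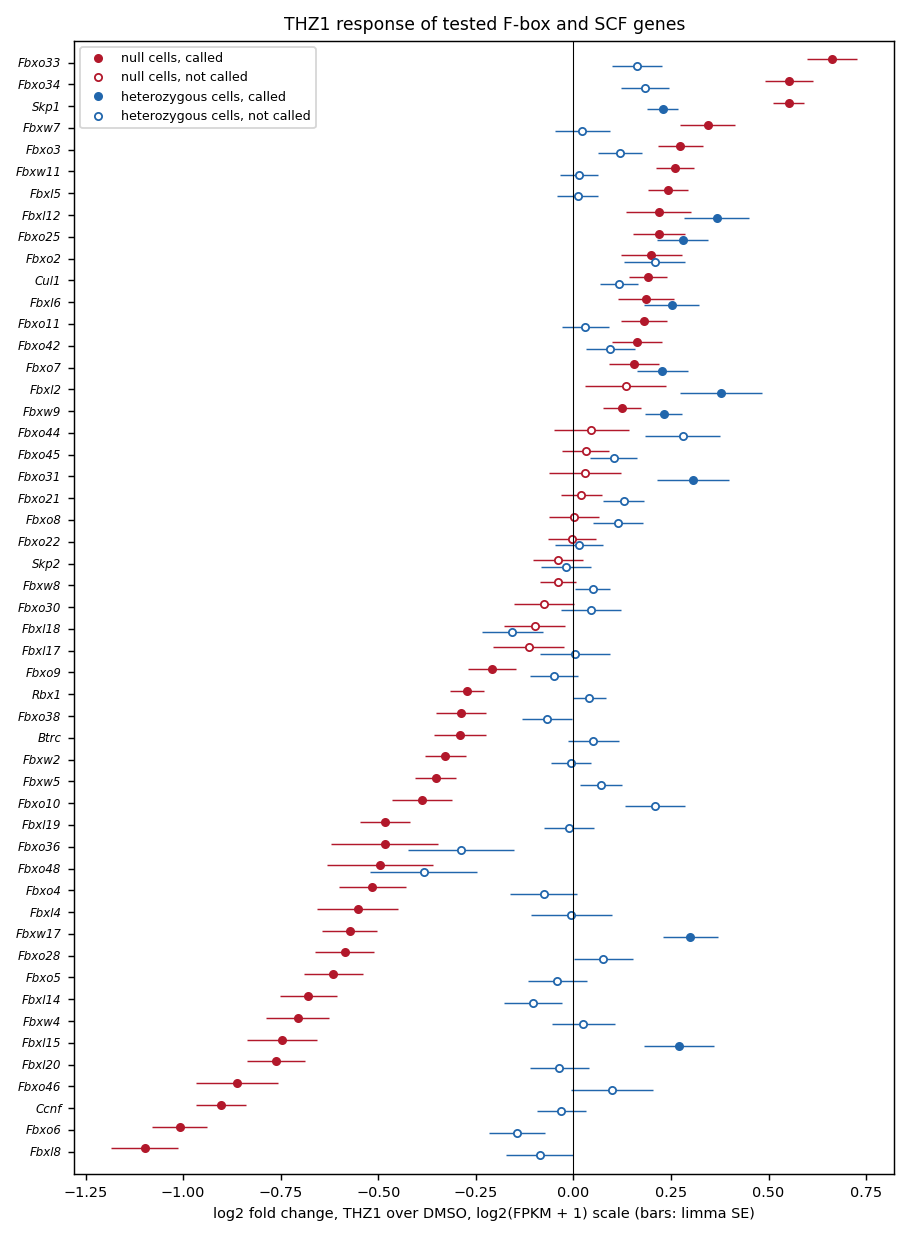
Log2 change of THZ1 against DMSO on the log2(FPKM + 1) scale for 51 of the 52 tested genes in null and in heterozygous cells, ordered by the change in null cells; bars are the limma SE and open points did not pass. In null cells the changes ran from -1.10 for Fbxl8 to 0.66 for Fbxo33, and in heterozygous cells from -0.38 for Fbxo48, which did not pass, to 0.38 for Fbxl2.

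In heterozygous cells the same dose moved few of the genes, and those that passed rose. Skp1, Fbxl12, Fbxl2, Fbxl6, Fbxo25, Fbxw9 and Fbxw17 rose under all 4 scalings, in the main one by log2 changes of 0.23 to 0.38. Of the 52 genes 10 rose and 0 fell (limma, adjusted p below 0.05), against 12.2% and 10.3% of all tested genes. With library totals 7 rose and 1, Fbxo48, fell (7.02% and 13.9% of all genes). The median log2 change was 0.05 over the 52 genes and 0.01 over all tested genes. Fewer of the 52 rose when any heterozygous library was left out, as did fewer of all tested genes. The median log2 change of the 52 was then 0.06 to 0.077. In 35 of the 52 genes the values did not overlap, against 65.0% of all tested genes.

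Skp1 had 185 and 182 FPKM in heterozygous THZ1 libraries, against 160 and 153 in heterozygous DMSO libraries (log2 change 0.23 ± 0.04, limma adjusted p = 0.00268). Fbxw9 rose by the same amount (0.23 ± 0.05, limma adjusted p = 0.00614). Fbxl12 had 6.22 and 6.08 FPKM in null THZ1, 4.82 and 5.48 in null DMSO, 4.85 and 5 in heterozygous THZ1 and 3.84 and 3.36 in heterozygous DMSO libraries. Each THZ1 group was above its DMSO group, by 0.37 ± 0.08 in heterozygous cells (limma adjusted p = 0.00916; 0.0519 to 0.0629 without heterozygous THZ1 replicate 1, heterozygous THZ1 replicate 2 or heterozygous DMSO replicate 2). The locus overlaps Ubl5 by 2052 bp on an unstated strand; Ubl5 rose as well, by 0.22 (limma adjusted p = 0.00328). Fbxl2 had 2.54 and 2.73 FPKM in null THZ1, 2.47 and 2.16 in null DMSO, 2.56 and 1.95 in heterozygous THZ1 and 1.43 and 1.56 in heterozygous DMSO libraries (0.38 ± 0.10 in heterozygous cells, limma adjusted p = 0.0222). Its heterozygous DMSO values were the lowest, and the call ended without heterozygous THZ1 replicate 1 (adjusted p = 0.221) or heterozygous DMSO replicate 1 (0.117); this locus overlaps that of Ubp1, which rose as well (0.17, adjusted p = 0.0376).

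Fbxo25 had 28.9 and 26.8 FPKM in null THZ1, 24.2 and 23.4 in null DMSO, 23.1 and 20.3 in heterozygous THZ1 and 18.3 and 17.01 in heterozygous DMSO libraries. Both lines showed higher values under THZ1 (0.22 ± 0.07 in null and 0.28 ± 0.07 in heterozygous cells, limma adjusted p = 0.00886 and 0.0109), but single libraries decided either call (adjusted p = 0.055 without null DMSO replicate 2 and 0.0801 without null THZ1 replicate 1; 0.0614 without heterozygous DMSO replicate 2 and 0.128 without heterozygous THZ1 replicate 1). Fbxo31, a reported receptor of cyclin D1, had 1.23 and 1.27 FPKM in null THZ1, 1.28 and 1.13 in null DMSO, 2.37 and 2.08 in heterozygous THZ1 and 1.58 and 1.63 in heterozygous DMSO libraries. Its log2 change of 0.31 ± 0.09 in heterozygous cells (limma adjusted p = 0.0317) missed the threshold when any of the 4 heterozygous libraries was left out (adjusted p = 0.0679 to 0.226). Neither Ccnf (-0.03 ± 0.06, limma adjusted p = 0.75) nor Fbxo6 (-0.14 ± 0.07, adjusted p = 0.162) nor Fbxo5 (-0.04 ± 0.07, adjusted p = 0.73) passed in heterozygous cells.

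The response to THZ1 was then compared between the lines directly, as the log2 change in null minus that in heterozygous cells. Fbxl15, Fbxl8, Fbxo46, Fbxw17, Ccnf and Fbxo6 had lower responses in null cells, and Fbxo33, Fbxo34, Skp1, Fbxw7, Fbxw11 and Fbxl5 rose more. Of the 52 genes 6 were called higher and 19 lower (limma, adjusted p below 0.05), against 15.1% and 45.1% of all tested genes. The median difference was -0.13 over the 52 genes and -0.19 over all tested genes. Rescaled by median of ratios, 13 were higher and 15 lower (32.9% and 28.6% of all genes), by upper quartile 11 and 15 (31.5% and 29.9%), and by library totals 6 and 20 (12.3% and 48.2%); 6 were higher and 15 lower under all 4. Of the calls in the 2 lines, 6 genes rose in both, and 2, Fbxl15 and Fbxw17, fell in null cells and rose in heterozygous cells. Among those that did not pass in heterozygous cells, 21 fell and 11 rose in null cells. Over all tested genes 24.6% rose and 51.1% fell in null cells, and 12.2% and 10.3% in heterozygous cells. The share of all genes with each joint pattern, or called alike under all 4 scalings, was not taken. These joint counts and all-scaling counts are only a description. Across the 52 genes the 2 responses, which share no library, had a Pearson r of 0.47, and across all tested genes 0.60; genes are not independent replicates.

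Fbxw17 had 4.56 and 4.89 FPKM in null THZ1, 7.42 and 7.61 in null DMSO, 7.51 and 7.97 in heterozygous THZ1 and 6.06 and 6.13 in heterozygous DMSO libraries. It was at -0.57 ± 0.07 in null and 0.30 ± 0.07 in heterozygous cells, and the responses differed by -0.87 ± 0.10 (limma adjusted p = 1.25e-05). The heterozygous call missed the threshold without heterozygous THZ1 replicate 2 (adjusted p = 0.0963) or heterozygous DMSO replicate 1 (0.0527). Fbxl15 was at -0.75 ± 0.09 in null and 0.27 ± 0.09 in heterozygous cells, a difference of -1.02 ± 0.12 (limma adjusted p = 2.4e-05); its heterozygous call (adjusted p = 0.0455) ended under the 3 other scalings and without single libraries (adjusted p up to 0.288). The response of Skp1 was 0.32 ± 0.06 higher in null cells (limma adjusted p = 0.000354), and that of Rbx1 -0.31 ± 0.06 (adjusted p = 0.000722); Rbx1 was no longer called after median of ratios or upper quartile scaling. For Fbxw7 (0.32 ± 0.10, limma adjusted p = 0.0132) and Fbxl5 (0.23 ± 0.07, adjusted p = 0.0165) the call ended without single libraries (adjusted p = 0.0561 to 0.0787). Skp2 showed no called difference in the main scaling (-0.02 ± 0.09, limma adjusted p = 0.849), and was at 0.21 after median of ratios scaling (adjusted p = 0.0448).

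Under THZ1, null and heterozygous cells differed in more of the genes. Of the 52, 13 were higher and 29 lower in null THZ1 than in heterozygous THZ1 cells (limma, adjusted p below 0.05), against 25.1% and 58.1% of all tested genes, with a median log2 difference of -0.25 over the 52 genes and -0.28 over all tested genes. Rescaled by median of ratios or upper quartile, 23 were higher and 23 lower (median of ratios: 40.3% and 41.3% of all genes), by library totals 13 and 29 (24.9% and 57.9%), and 13 were higher and 23 lower under all 4. The share of all genes called alike under all 4 was not taken. Values did not overlap in 48 of the 52 genes, against 92.0% of all tested genes. Fbxo2 (-3.15 ± 0.08, limma adjusted p = 3.2e-12) and Fbxo36 (-2.19 ± 0.14, adjusted p = 6.98e-09) stayed the lowest, followed by Fbxl15 (-1.72), Fbxo5 (-1.62), Ccnf (-1.51), Fbxo44 (-1.49) and Fbxl8 (-1.28). The value of Fbxo44 is again a description with no test, though the gene is counted among the 29. Fbxl5 (0.73), Fbxo33 (0.63), Fbxw7 (0.59), Fbxo11 (0.47) and Fbxo38 (0.44) were the highest. Skp1, lower in null cells under DMSO, did not pass under THZ1 (0.07 ± 0.04, limma adjusted p = 0.137), and Fbxw11 was called lower in the main scaling (-0.16 ± 0.05, adjusted p = 0.00644) but higher after median of ratios scaling (0.14, adjusted p = 0.021).

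The machinery that switches SCF ligases on and off was described from a list of 23 genes for the ubiquitin-like protein Nedd8 and its enzymes, the Cand exchange factors and the COP9 signalosome, which removes Nedd8 from cullins. In null cells under THZ1, 4 of the 23 rose and 12 fell (median -0.12), against 24.6% and 51.1% of all tested genes (median -0.17). In heterozygous cells 3 rose and 2 fell, against 12.2% and 10.3%. Senp8, the protease that matures Nedd8, had 0.28 and 0.47 FPKM in null THZ1, 2.91 and 2.78 in null DMSO, 1.88 and 1.80 in heterozygous THZ1 and 3.16 and 3.32 in heterozygous DMSO libraries (-1.49 ± 0.09 in null and -0.58 ± 0.09 in heterozygous cells, limma adjusted p = 2.16e-08 and 0.00183). Dcun1d2, a cofactor of Nedd8 transfer, had 5.12 and 5.43 FPKM in null THZ1, 14.8 and 14.1 in null DMSO, 13.3 and 14.2 in heterozygous THZ1 and 16.7 and 16.1 in heterozygous DMSO libraries. Both genes fell in both lines, and more in null cells: the responses of Senp8 differed by -0.91 ± 0.13 and those of Dcun1d2 by -1.07 ± 0.09 (limma adjusted p = 8.99e-05 and 1.3e-06). Values of Senp8 are low, so the log2(FPKM + 1) scale understates its changes, and the sizes for the 2 genes are not compared. Nedd8 itself rose, by 0.41 ± 0.04 in null and 0.20 ± 0.04 in heterozygous cells (limma adjusted p = 1.03e-06 and 0.00482). Under DMSO 5 of the 23 were higher and 13 lower in null than in heterozygous cells (median -0.17), against 29.0% and 41.0% of all tested genes, with Cand2 at -1.11, the signalosome subunits Cops3 at -0.66 and Gps1 at -0.65.

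A list of 10 genes held conjugating enzymes and 3 other SCF partners, the ligase Arih1, the Skp2 cofactor Cks1b and the co-chaperone Sugt1. In null cells under THZ1 2 of them rose (Ube2r2 and Arih1) and 3 fell (Cdc34, Ube2d2a and Ube2d3), against 24.6% and 51.1% of all tested genes, and by limma 0 of the 10 passed in heterozygous cells. Cdc34, the enzyme that extends ubiquitin chains on SCF substrates, had 46.5 and 52.3 FPKM in null THZ1, 72.3 and 72.0 in null DMSO, 93.5 and 95.4 in heterozygous THZ1 and 85.7 and 90.1 in heterozygous DMSO libraries. It fell by 0.54 on the log2 scale in null cells (-0.54 ± 0.05, limma adjusted p = 1.01e-06), while its relative Ube2r2 rose (0.32 ± 0.05, adjusted p = 6.01e-05). Of 13 core genes of the other cullin ligases, 8 were higher and 4 lower in null DMSO than in heterozygous DMSO cells, against 29.0% and 41.0% of all tested genes; Cul7, the partner of Fbxw8, was at 0.80 ± 0.05 (limma adjusted p = 3.52e-08) and Cul3 at -0.46 ± 0.05 (adjusted p = 1.37e-06). Of 26 tested genes for textbook SCF substrates, 6 rose and 16 fell in null cells under THZ1 (24.6% and 51.1% of all tested genes), and 4 rose and 4 fell in heterozygous cells (12.2% and 10.3%). The RNA of Per2, a clock protein turned over through beta-TrCP, was at -1.01 ± 0.09 and that of Notch1, a substrate of Fbxw7, at 0.68 ± 0.07 in null cells (limma adjusted p = 4.68e-07 and 9.13e-07). The RNA of the Skp2 substrate p27, Cdkn1b, was lower in null DMSO than in heterozygous DMSO cells (-0.84 ± 0.06, limma adjusted p = 2.98e-08). Outside the naming rule, 3 more F-box genes were tested: Fbh1, a DNA helicase, was at -0.67, and the histone demethylases Kdm2b and Kdm2a at -0.22 and -0.02 in null cells under THZ1, where Kdm2a did not pass (limma adjusted p = 0.801).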

How the data were processed

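The authors deposited 1 FPKM table per library (poly(A)-selected RNA, per the labels' protocols); the submitters' processing notes name Bowtie2, DESeq2 and build mm10, without saying which program made the FPKM, and strand is not given in the sources used here. Entrez IDs were matched to mouse symbols (18592 of 18631). Here log2(FPKM + 1) of the 10731 genes with a mean of at least 1 FPKM was fitted with limma 3.58.1 in R 4.3.3, with 1 mean per group over all 8 libraries, a trend in the prior spread and Benjamini-Hochberg adjustment; genes with an adjusted p below 0.05 were called. The fit was tested on simulated data with normal noise and few changed genes, which cannot test the scaling or the noise of the real libraries. Depth was estimated from the step between low FPKM values, so fold changes have no counting interval. Members and gene lists were chosen with earlier results of these data known. Values per library were given for a fixed set of members and for the called members with the 6 largest log2 values per direction in each comparison. Tsku, put among the further F-box genes in error, was left out. Other scalings, pseudocounts, filters, a replicate block and leaving out each library were tried. A few items are not reported here.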

Additional observations from a re-analysis of the deposited data

Results flagged for a closer look

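The THZ1 responses of the 2 lines differed (log2 change in null minus log2 change in heterozygous cells, limma adjusted p below 0.05) for 16 of the genes described library by library. Among them the change was more negative in null cells for Fbxl15 (-1.02), Fbxl8 (-1.01), Fbxo46 (-0.96), Fbxw17 (-0.87), Ccnf (-0.87), Fbxo6 (-0.86), Fbxl20 (-0.73), Fbxo5 (-0.57), Btrc (-0.34) and Rbx1 (-0.31). It was more positive in null cells for Fbxl5 (0.23), Fbxw11 (0.25), Fbxw7 (0.32), Skp1 (0.32), Fbxo34 (0.37) and Fbxo33 (0.50). All of these kept their call under the other 3 scalings except Btrc and Rbx1. Null DMSO replicate 1 and null THZ1 replicate 2 listed 15439 and 14900 genes above 0, against 14007 to 14305 in the other libraries. They also held more values of 0.01 to 0.2 FPKM (3378 and 3129, against 2230 to 2586). The part of this in the calls was not tested, and groups of 2 libraries cannot show which of them stands apart.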

How the results depend on the processing

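With 2 libraries per group and no deposited counts, small differences, and any of genes under 1 FPKM, cannot be judged. Of the 165 values of single genes named, 115 kept their direction and side of the threshold under every alternative. The counts of called genes moved by more than 1.5 times as follows; causes were not tested. In null cells under THZ1, 8 rose with library totals in place of 17. In heterozygous cells, 3 rose without a filter on low values in place of 10, and 3 to 11 when single libraries were left out; 1 fell with library totals or with only the libraries compared, and 0 to 1 with single libraries left out. Under THZ1, 23 were higher in null cells after median of ratios and 23 after upper quartile scaling in place of 13. For the difference between the responses, 13 were higher after median of ratios and 11 after upper quartile scaling in place of 6. Over the scalings, values of 11 of the 52 genes changed sign in null cells under THZ1, 8 in heterozygous cells, 1 between the lines under DMSO, 6 under THZ1 and 16 in the difference between the responses. Among the named values, 5 had the opposite sign and passed the threshold there. Skp2 in null cells under THZ1 was at 0.19 after median of ratios and 0.157 after upper quartile scaling (main -0.04). Fbxw11 between the lines under THZ1 was at 0.138 and 0.118 (main -0.16). The difference between the responses of Skp2 was 0.206 after median of ratios scaling (main -0.02). Replicate 1 minus replicate 2 was little correlated between groups (Pearson r -0.094 to 0.139), which cannot exclude that samples were paired by number. With a replicate block 17 rose and 23 fell in null cells and 11 rose in heterozygous cells, where Fbxo2 then passed (0.208, limma adjusted p = 0.0486).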
